A study of Mus musculus with 8 samples.

Results

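The 9 genes described here are those of the red cell lineage and of hemoglobin: Hba-a1 and Hbb-b1, Alas2, Klf1 and Epor, Slc4a1 and Ank1, and Car1 and Car2. They were taken by gene name, with earlier results of these data known, from 49826 gene names on the array design that carried Lin- BM cells and 1-month BM-derived hepatocytes (slide A) and 34761 on the design that carried primary hepatocytes and 5-month BM-derived hepatocytes (slide B). The study asked how bone marrow progenitor cells of the mouse take on hepatocyte gene expression in a regenerating liver, and measured mRNA on 8 single-colour Agilent arrays, 2 in each of 4 groups. Lin- BM cells were bone marrow cells of young adult female C57Bl6/J-Tg(UBCGFP)30Scha/J mice, in which the ubiquitin C promoter drives GFP, after magnetic depletion of mature blood cells with a cocktail that included Ter119, an antibody to red cell precursors and red cells. Such cells were given to young adult male hemophilia A mice, which carry the disrupted F8 allele F8tm1Kaz and had acetaminophen liver injury, and eGFP+ cells of the perfused liver were sorted after 1 or 5 months as BM-derived hepatocytes, so the hosts kept their own liver and blood cells. The labels describe the remaining group as primary hepatocytes, with no genotype or treatment. The study describes the arrays of a group as separate experiments, each on cells pooled from several mice. The labels do not tie an array to its animals. The p-values below measure the spread between the 2 arrays of a group, pooled over the groups of a fit. Shares of cells and RNA per cell cannot be told apart in such pooled samples.

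Red cells arise from progenitors in the marrow in which GATA1 and the zinc finger factor KLF1 switch on the globin genes, the enzymes of heme synthesis and the membrane skeleton, while erythropoietin acting through its receptor keeps the precursors alive. Hemoglobin pairs alpha chains, encoded by Hba-a1 and its near-identical neighbour Hba-a2, with beta chains, encoded in mice by Hbb-b1 and its close relatives. ALAS2 is the erythroid form of the enzyme that begins heme synthesis and ALAS1 is the form of all other tissues, liver included. The liver is rich in blood, and makes heme of its own for enzymes such as the cytochromes P450.

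Gene places come from RefSeq on GRCm38.p6. Hba-a1 lies at chr11:32283672-32284486 and Slc4a1 at chr11:102348820-102365281. The transcript that the deposited files name Hbb-b1 is called Hbb-bt in RefSeq, at chr7:103812524-103813923. Klf1 lies at chr8:84901982-84905291, Ank1 at chr8:22974836-23150501, Epor at chr9:21958897-21963576, Car1 at chr3:14766214-14808365, Car2 at chr3:14886269-14900770 and Alas2 at chrX:150547417-150570622. Slide A carried 16 probes for these genes, of which 4 were for Hbb-b1 and 5 for Ank1, and slide B carried 10, of which 2 were for Car1. Alas2, Klf1, Epor, Slc4a1, Car1 and Car2 had a probe of identical sequence on both slides. The globin probes and those of Ank1 did not, so their levels were compared within a slide only.

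The globin probes are shown because near-identical paralogs bear on what they measured. The Hba-a1 probes of both slides are 60 bases from different stretches of the transcript. The fourth Hbb-b1 probe of slide A overlapped the Hbb-b2 probe of slide B over 44 bases with 3 mismatches, in capitals, so beta-globin paralogs could share signal and a globin value here is that of a group of paralogs. The Car1 probe is given as the example of a sequence that was the same on both slides.
Hba-a1, slide A: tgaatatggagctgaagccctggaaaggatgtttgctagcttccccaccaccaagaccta
Hba-a1, slide B: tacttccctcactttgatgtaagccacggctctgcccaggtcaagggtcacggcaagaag
Hbb-b1, slide A: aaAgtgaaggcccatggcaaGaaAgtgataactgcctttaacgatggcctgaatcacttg
Hbb-b2, slide B: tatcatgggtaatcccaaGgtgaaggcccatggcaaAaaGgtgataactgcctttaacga
Car1, both slides: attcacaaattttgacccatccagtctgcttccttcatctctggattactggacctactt

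Promoters were taken from the RefSeq promoter table of GRCm38.p6 for the 5 genes it held, and the other 4 (Slc4a1, Ank1, Car1 and Car2) are named only. The 250 bases before each transcription start are shown, because 4 of these genes moved one way between Lin- BM cells and 1-month cells and Alas2 the other. Capitals mark GATAA or its other strand TTATC, the core that GATA factors bind, and CCNCNCCC or its other strand GGGNGNGG, a CACCC-type letter pattern of the kind bound by KLF factors.
Hba-a1, chr11:32283422-32283671, plus strand: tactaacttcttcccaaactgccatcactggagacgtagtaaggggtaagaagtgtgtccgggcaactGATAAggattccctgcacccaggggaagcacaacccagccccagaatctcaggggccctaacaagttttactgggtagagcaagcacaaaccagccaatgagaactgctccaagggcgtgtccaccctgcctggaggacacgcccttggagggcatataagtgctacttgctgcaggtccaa
Hbb-b1 (Hbb-bt), chr7:103813924-103814173, minus strand: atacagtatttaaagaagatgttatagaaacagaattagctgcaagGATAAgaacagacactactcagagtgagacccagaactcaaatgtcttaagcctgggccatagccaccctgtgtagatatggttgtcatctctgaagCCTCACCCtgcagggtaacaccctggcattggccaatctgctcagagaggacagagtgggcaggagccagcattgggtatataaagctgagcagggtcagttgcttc
Klf1, chr8:84901732-84901981, plus strand: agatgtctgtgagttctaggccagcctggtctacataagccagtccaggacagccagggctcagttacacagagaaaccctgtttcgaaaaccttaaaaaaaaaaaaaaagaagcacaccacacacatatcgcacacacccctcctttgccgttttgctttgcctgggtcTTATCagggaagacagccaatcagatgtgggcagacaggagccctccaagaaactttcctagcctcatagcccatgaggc
Epor, chr9:21963577-21963826, minus strand: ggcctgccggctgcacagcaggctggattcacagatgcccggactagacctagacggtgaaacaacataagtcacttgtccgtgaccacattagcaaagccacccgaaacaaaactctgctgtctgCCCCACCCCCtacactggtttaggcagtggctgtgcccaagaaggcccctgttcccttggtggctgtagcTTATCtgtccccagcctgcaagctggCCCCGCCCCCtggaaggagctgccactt
Alas2, chrX:150547167-150547416, plus strand: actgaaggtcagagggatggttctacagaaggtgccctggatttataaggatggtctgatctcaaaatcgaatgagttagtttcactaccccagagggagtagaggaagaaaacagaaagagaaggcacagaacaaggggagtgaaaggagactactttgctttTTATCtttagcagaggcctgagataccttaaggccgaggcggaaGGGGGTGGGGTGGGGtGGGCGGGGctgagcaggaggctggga

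Each of the 5 promoters held 1 GATAA match, at 182 bases before the start in Hba-a1, 204 in Hbb-bt, 80 in Klf1, 54 in Epor and 86 in Alas2. A match was present in 22.6% of all 32851 promoters of this length. CCNCNCCC matched once in Hbb-bt, at 4 overlapping or neighbouring places in Epor and at 4 in Alas2, and not in Hba-a1 or Klf1, against 45.9% of all promoters. Alas2, the gene that went the other way, therefore held the same letters as Epor. The promoter entries, which run past the start, were also laid side by side without gaps. Those of Hba-a1 and Hba-a2 were identical over 297 bases, and those of Hbb-bt and Hbb-bs matched at 56.2% of 299. A single insertion or deletion lowers such a count, so the second value does not measure how alike these promoters are. A match of letters is a description of the sequence and says nothing of binding.

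Between 47.7% and 58.6% of probes were well above background on each array, no spot was saturated, and the upper quartile of signal was 75.5 and 89.5 on the 1-month arrays against 122 to 193 on the other 6. Levels are log2 signals minus the 75th percentile of the array. On slide A the Lin- and 1-month labels held up against defining markers. All 5 hepatocyte markers were higher at 1 month than in Lin- BM cells, Alb by a factor of at least 21241, and their summed level on that slide was 0.121 and 0.201 on the Lin- arrays against 1252 and 1359 on the 1-month arrays. All 7 markers of hematopoietic progenitors and all 7 of neutrophils were lower at 1 month, as were 4 of 5 of megakaryocytes and platelets. So were all 4 of mast cells and basophils and 3 of 5 of lymphocytes, against 26.5% of all genes. All 4 markers of sinusoidal endothelium and 3 of 5 of Kupffer cells were higher, against 28.8%. Of 2 biliary markers 1 was higher and 1 lower. On slide B hepatocyte markers summed to 3434 and 3790 in primary hepatocytes and to 3756.5 and 4346 at 5 months. Neutrophil markers there summed to 74.6 on 5-month replicate 1 and to 13.1 to 24.8 on the other arrays. The part of these other cell types in the changes below was not tested. The plot of levels by array shows the 9 genes.

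**Figure D1:**
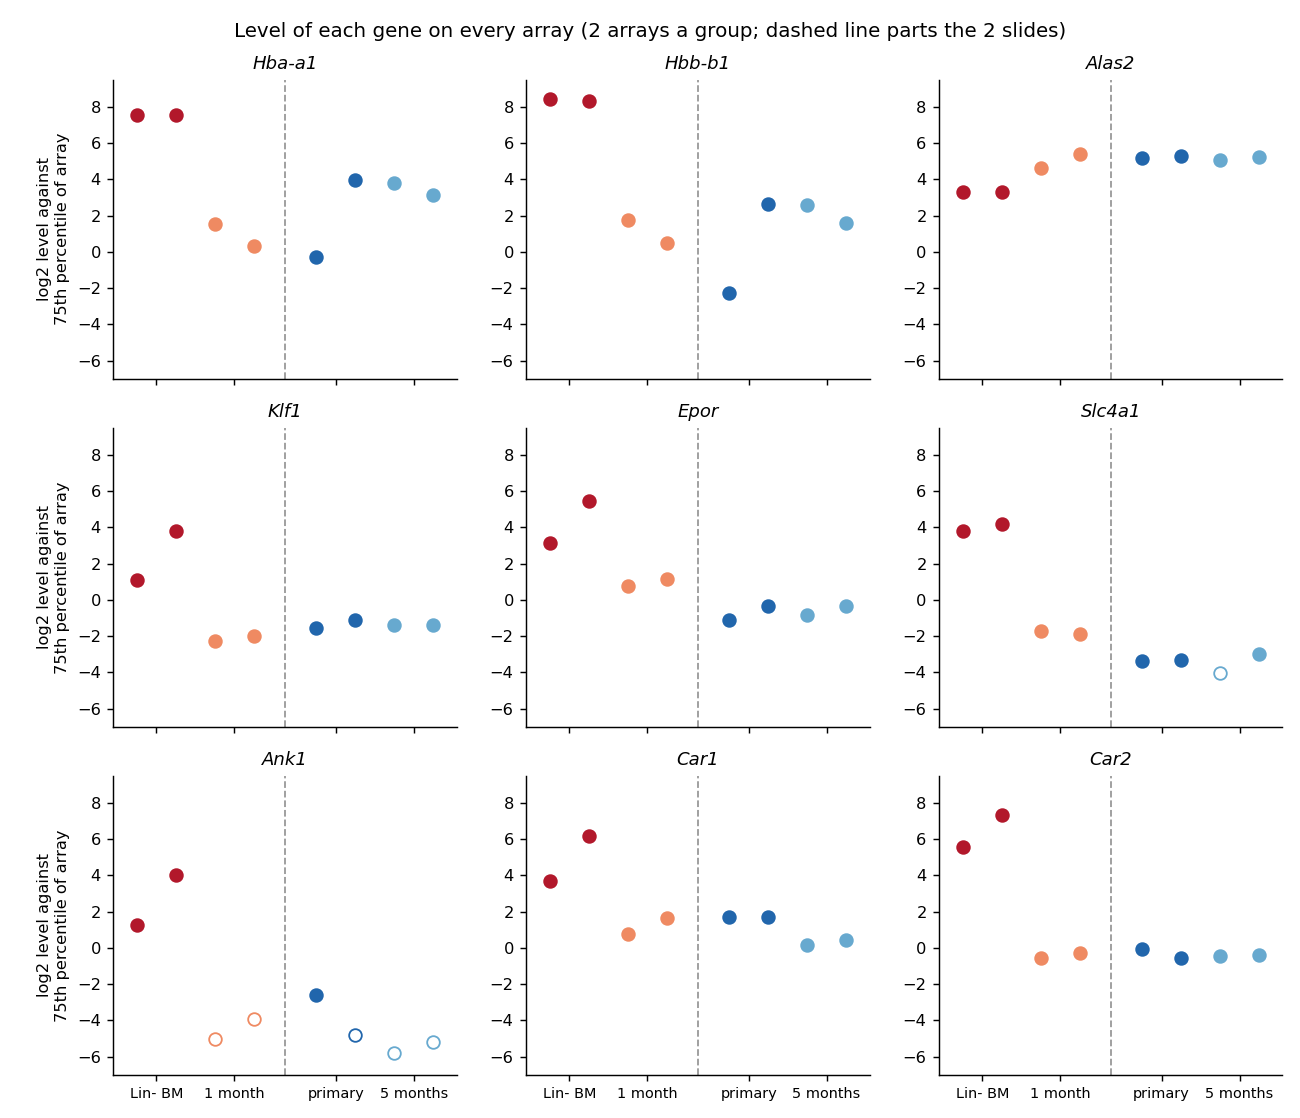
Log2 level of the 9 genes on each of the 8 arrays, against the 75th percentile of the array, with 2 arrays a group and open circles for spots not well above background; the dashed line parts the 2 slides, and the probes of Hba-a1, Hbb-b1 and Ank1 differ between the slides. All genes but Alas2 were highest in Lin- BM cells on slide A, and Hba-a1 and Hbb-b1 were far lower in the first primary hepatocyte array than in the other 3 arrays of slide B.

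All 9 genes differed between 1-month BM-derived hepatocytes and Lin- BM cells, with 8 lower and 1 higher at 1 month. Of all 28535 genes tested on this slide 26.5% were lower and 28.8% higher, and the split of the calls was 52.1% higher with this scaling and 62.9% with another background correction. The median change was -5.80 over the 9 genes, also with Ank1 at its bound, and 0.07 over all genes. Under the other background correction (normexp) the median of all genes was 0.37, and the 9 genes kept their directions. A call needed a Benjamini-Hochberg adjusted p under 0.05 by limma and a log2 change beyond 0.6.

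Globins showed some of the steepest falls. Hba-a1, the alpha chain, had log2 levels of 7.56 and 7.57 in Lin- BM cells replicates 3 and 4 and of 1.53 and 0.31 in 1-month replicates 1 and 2. It fell by 6.65 (SE 0.46, n = 2 per group), or 100.2-fold, with an adjusted p of 0.000684. The Lin- arrays were within 1.01-fold of each other and both 1-month arrays lay far below them.

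Hbb-b1, the beta chain, had log2 levels of 8.41 and 8.30 in Lin- BM cells and of 1.75 and 0.51 at 1 month on its brightest probe. It fell by 7.23 (SE 0.47, adjusted p = 0.000558), or 150.2-fold. Its other 3 probes gave changes of -6.02, -7.45 and -8.15. All 4 probes remained well above background at 1 month, as did that of Hba-a1, so globin mRNA was still measurable in the sorted cells. Within the 1-month pair, replicate 1 lay 2.33-fold above replicate 2 for Hba-a1 and 2.35-fold for Hbb-b1, a gap that 7.76% and 7.58% of all genes exceeded.

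Alas2 went the other way and was the only one of the 9 genes that was higher at 1 month. Its log2 levels were 3.28 and 3.31 in Lin- BM cells and 4.66 and 5.40 at 1 month, and the groups did not overlap. It rose by 1.73 (SE 0.35, adjusted p = 0.0127), or 3.32-fold. The processed signals before scaling were 1871 and 1742 in Lin- BM cells and 1891 and 3742 at 1 month, so for replicate 1 of the 1-month cells the difference rested on the lower upper quartile of that array. The rise was between 1.34 and 1.73 under the other background correction and scalings, and its adjusted p passed 0.05 (0.0516, 0.0511 and 0.0550) when Lin- replicate 3, Lin- replicate 4 or 1-month replicate 2 was left out.

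The regulators Klf1 and Epor fell with more spread. Klf1, the erythroid transcription factor, had log2 levels of 1.11 and 3.78 in Lin- BM cells against -2.26 and -1.98 at 1 month, and fell by 4.56 (SE 0.89, adjusted p = 0.0120). Epor, the erythropoietin receptor, had levels of 3.14 and 5.44 against 0.76 and 1.18, and fell by 3.33 (SE 0.79, adjusted p = 0.0209). Both were well above background on every array of the slide, and the 1-month values of both lay below both Lin- values. Klf1 moved by -3.11 under the other background correction. Neither call held when either 1-month replicate was left out (adjusted p 0.0544 to 0.0903).

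Of the membrane proteins, Slc4a1, the band 3 anion exchanger of the red cell, had log2 levels of 3.82 and 4.17 in Lin- BM cells against -1.72 and -1.90 at 1 month. It fell by 5.80 (SE 0.28, adjusted p = 0.000272), or 55.9-fold, and by 4.40, or 21.2-fold, under normexp. Ank1, the ankyrin that ties band 3 to the spectrin skeleton, had levels of 1.27 and 4.05 in Lin- BM cells on its chosen probe and was not well above background on either 1-month array. It was at least 72.6-fold lower at 1 month (adjusted p = 0.00443), a bound of 27.7-fold without Lin- replicate 4 and of 190.4-fold without Lin- replicate 3. The fitted change was -3.63, or 12.4-fold, under normexp. None of the 5 Ank1 probes was well above background at 1 month, and 3 of them were on both Lin- arrays, while the other 2 were on Lin- replicate 4 only. Ank1 thus passed the filter through Lin- BM cells alone, which set its direction.

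The carbonic anhydrases of the red cell, which interconvert carbon dioxide and bicarbonate, both fell. Car1 had log2 levels of 3.67 and 6.15 in Lin- BM cells against 0.75 and 1.64 at 1 month, a fall of 3.71 (SE 0.88, adjusted p = 0.0208). Car2 had levels of 5.59 and 7.33 against -0.54 and -0.27, and fell by 6.87 (SE 0.62, adjusted p = 0.00135), or 117-fold. Car1 lost its call when either 1-month replicate was left out (adjusted p 0.0942 and 0.0603), and Car2 did not. The plot of changes sets these values beside those of slide B.

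**Figure D2:**
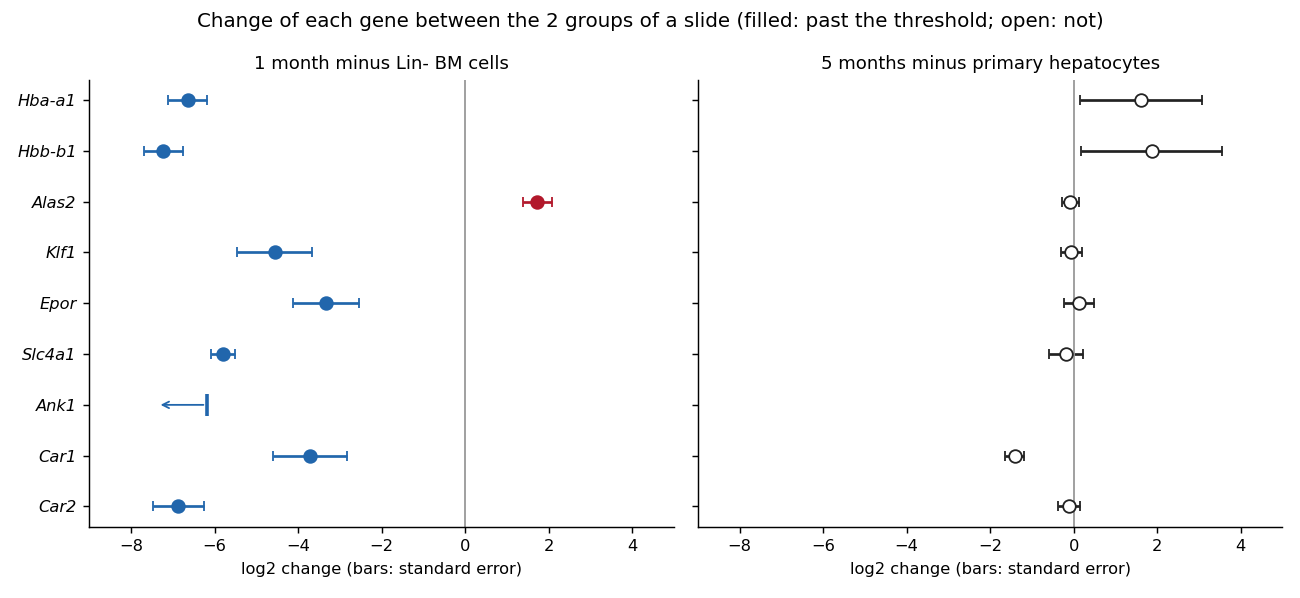
Log2 change of each gene within a slide, 1 month minus Lin- BM cells on the left and 5 months minus primary hepatocytes on the right, with standard errors from limma (2 arrays a group), filled points past the threshold and open points not; Ank1 is drawn as a bound with an arrow because it was not well above background at 1 month, and it was not tested on slide B. On the left 8 genes lie below 0 and Alas2 above it, and on the right no gene passed the threshold.

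Genes around the 9 were read from lists of the same lineage, beside 26.5% of all genes lower and 28.8% higher. Of 13 other erythroid transcription factors 9 were lower at 1 month and none higher, with a median change of -5.35, or -5.20 with genes not above background at their bound. Myb, a factor of immature blood cells, was at least 1770-fold lower, Gfi1b at least 329-fold, Ikzf1 at least 124-fold, and Lyl1 fell by 6.96. Gata1 was at least 20.4-fold lower. Of 18 genes of the red cell membrane and cytoskeleton 14 were lower and none higher, with a median of -3.50, or -2.57 at the bounds. The blood group genes Rhd, at least 252-fold lower, and Kel, at least 76.0-fold lower, were among them, with Ermap at least 136-fold lower. Of 3 genes of iron uptake 2 were lower, among them the transferrin receptor Tfrc, which fell by 2.72. Well above background in 1 group only were 4 of the 13 factors, 10 of the 18 membrane genes and 1 of the 3 uptake genes. Such genes passed the filter through that group, which set their direction.

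Late erythroid genes and the heme pathway moved less uniformly. Of 11 late erythroid genes 3 were lower, led by Hemgn, the nuclear protein hemogen, at least 320-fold, and 8 did not pass. That count lay near the 26.5% of all genes that were lower. Of 12 genes of heme synthesis and its mitochondrial transport 3 were higher and 1 lower, with a median change of 0.19, against 28.8% and 26.5% of all genes. Alas1, the housekeeping partner of Alas2, rose by 2.45, Alad by 2.12 and Fech, the ferrochelatase that inserts iron, by 1.97, while Ppox fell by 1.76. Of 9 genes of erythropoietin signalling 2 were lower, also near the 26.5% of all genes, Jak2 by -2.18 and Stat5a by -2.37. None of the 3 other globin or globin chaperone genes tested on this slide passed.

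Relatives of Car1, Car2, Ank1 and Slc4a1 did not follow them. Of 11 other carbonic anhydrases 7 were higher at 1 month and 3 lower, against 28.8% and 26.5% of all genes. The mitochondrial Car5a was at least 772-fold higher and Car8 at least 231-fold higher, and Car3 rose by 6.92, whereas Car13 fell by 3.38. Of 6 other ankyrins and SLC4 transporters 5 were higher and 1 lower. Ank3 rose by 5.16, and the bicarbonate cotransporter Slc4a4 was at least 5.52-fold higher. The bars by gene list show these counts.

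**Figure D3:**
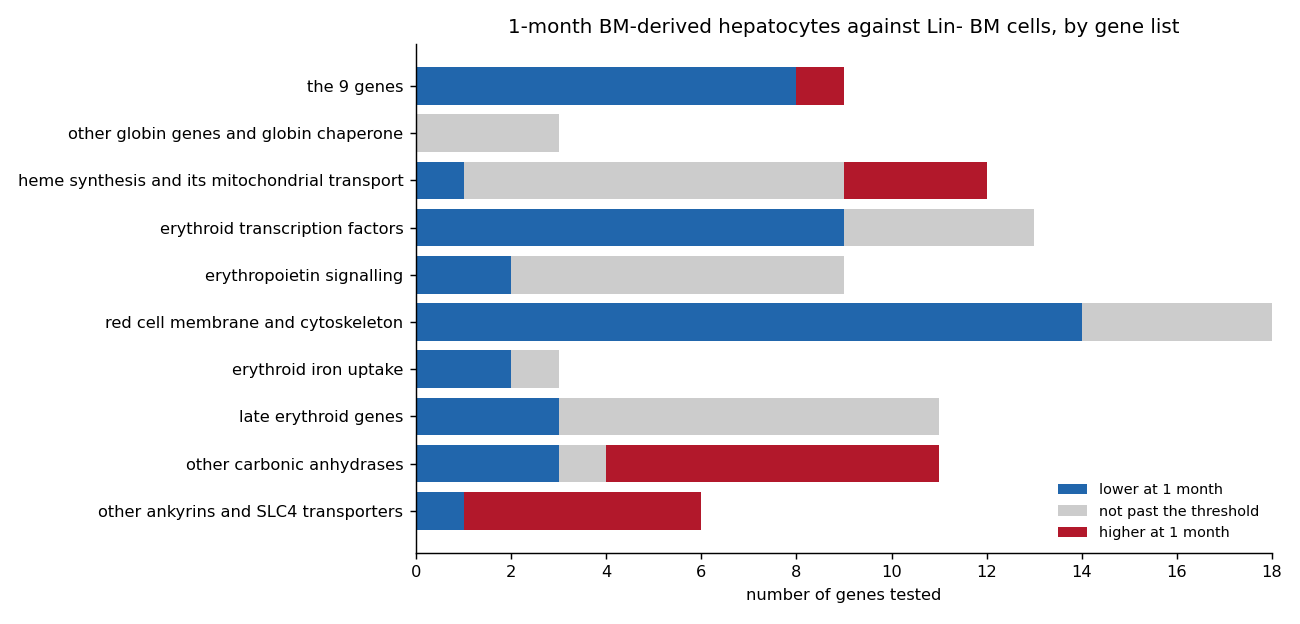
Number of genes lower (blue), higher (red) or not past the threshold (grey) at 1 month against Lin- BM cells, for the 9 genes and for each list. Transcription factors and membrane genes lie on the lower side with 9 of 13 and 14 of 18, while the other carbonic anhydrases lie mostly on the higher side with 7 of 11. Of all genes 26.5% were lower and 28.8% higher.

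The 2 Lin- arrays themselves differed in 5 of the 9 genes. Replicate 4 was above replicate 3 by 6.40-fold for Klf1, 4.93-fold for Epor, 6.88-fold for Ank1, 5.60-fold for Car1 and 3.34-fold for Car2, gaps that only 0.533% to 3.11% of 28529 genes exceeded. For Hba-a1, Hbb-b1 and Alas2 the arrays were within 1.08-fold of each other, and for Slc4a1 within 1.28-fold. The median gap of all genes was 0.38 on the log2 scale. Each gap is that of 1 array against 1 array, so it does not show how Lin- samples differ in general.

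Some lists of other erythroid genes differed between the Lin- arrays in the same direction and others did not. Replicate 4 was higher by more than 0.6 on the log2 scale in 16 of 18 membrane genes, 10 of 12 heme genes and 3 of 3 iron uptake genes, against 15.8% of all genes. Of 13 transcription factors 5 were higher by that much and 1 lower, of 11 late erythroid genes 4 and 2, and of 9 genes of erythropoietin signalling 1 and 3, with medians of 0.44, 0.08 and -0.39. Rhd, of the membrane list, had levels of 3.37 in replicate 3 and 5.54 in replicate 4. Neutrophil markers ran the opposite way, with 6 of 7 lower in replicate 4 and a summed level of 1021 in replicate 3 and 482 in replicate 4. Markers of megakaryocytes and platelets were at a summed level of 47.2 and 134.8, with 3 of 5 higher by more than 0.6 in replicate 4 and 1 lower. The part of such marker differences in the gaps of the 9 genes was not tested. All 9 genes kept their direction at 1 month against either Lin- array alone, with Klf1 at -3.22 without replicate 4 and -5.90 without replicate 3.

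**Figure D4:**
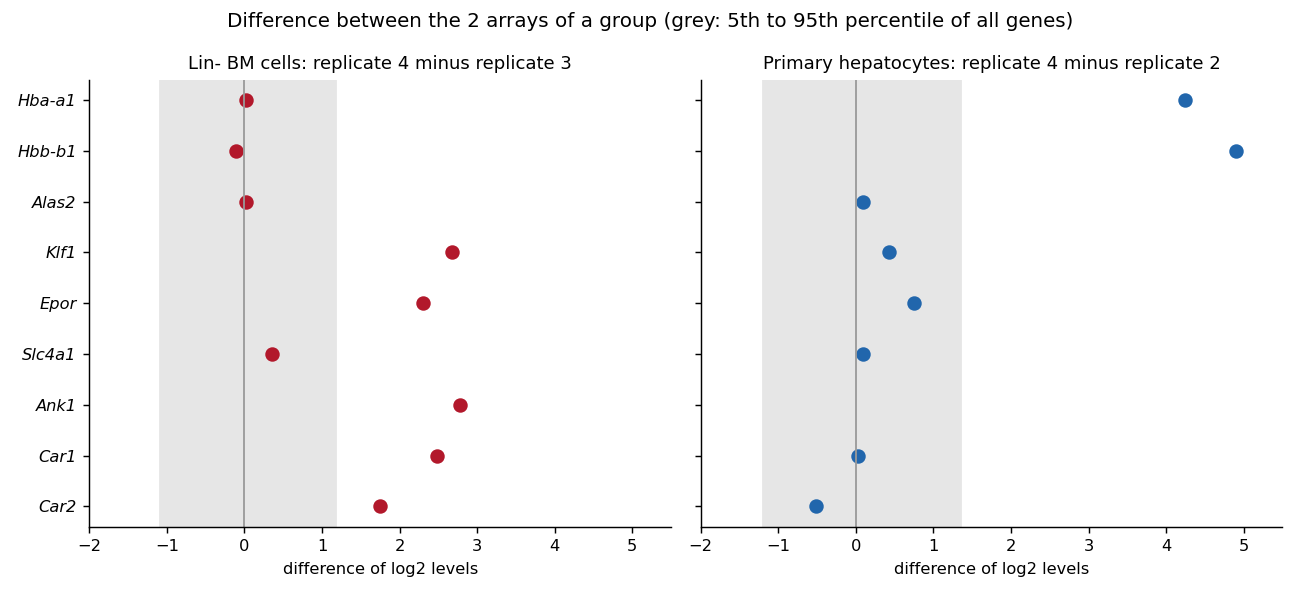
Difference of log2 levels between the 2 arrays of Lin- BM cells (left) and of primary hepatocytes (right) for each gene, with the range from the 5th to the 95th percentile of all genes in grey. Klf1, Epor, Ank1, Car1 and Car2 lie outside the grey range among Lin- BM cells and both globins lie outside it among primary hepatocytes, at 4.24 and 4.90.

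Between 5-month BM-derived hepatocytes and primary hepatocytes none of the 8 genes tested passed the threshold, against 0.552% of all 19933 genes, or 110 genes. By limma the smallest unadjusted p of the 8 was that of Car1 (0.00216). At an unadjusted p under 0.05 by the methods' own test 1 of the 8 passed, against 6.84% of all genes. The median change was -0.07 over the 8 genes and 0.04 over all genes. Ank1 was not tested, since it was well above background on primary hepatocyte replicate 2 only.

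Globins spread widely within the primary hepatocytes. Hba-a1 had log2 levels of -0.27 and 3.98 in primary hepatocytes replicates 2 and 4, a gap of 19.0-fold that 38 of 19930 genes exceeded, and of 3.81 and 3.11 in 5-month replicates 1 and 3. Hbb-b1 had levels of -2.24 and 2.66, a gap of 29.8-fold that 14 genes exceeded, and of 2.56 and 1.58 at 5 months. The 5-month values thus lay between the 2 primary values for both genes. The changes were 1.61 (SE 1.47, adjusted p = 0.677) for Hba-a1 and 1.86 (SE 1.70, adjusted p = 0.676) for Hbb-b1.

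The size and sign of the globin change depended on which primary array stood as the control. Against replicate 2 alone the changes at 5 months were 3.73 for Hba-a1 and 4.31 for Hbb-b1, and against replicate 4 alone they were -0.52 and -0.58. With 1 control array the spread comes from the 5-month pair only. The first fit then called both globins (adjusted p = 0.00689 and 0.00761) but also 1624 of all genes in place of 110, and the second called neither. The paralogs Hba-a2 and Hbb-b2 showed the same gap, 20.9-fold and 31.8-fold, and Hbb-bs went from -5.86 to -0.41.

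Few other erythroid genes shared the gap between the primary arrays. Replicate 4 was higher by more than 0.6 in 2 of 12 heme genes, 2 of 9 membrane genes and 2 of 9 late erythroid genes, against 17.2% of all genes. Alas1 had levels of 6.51 and 9.46, Hemgn of 6.68 and 9.03, and Dmtn, the actin-bundling protein dematin, of 2.90 and 5.61. The erythroid factor Nfe2 went from 1.00 to -3.09. On slide A Hemgn had levels of 3.88 and 5.72 in Lin- BM cells and of -4.75 and -5.65 at 1 month. These levels come from the brightest probe of each slide, whose sequence may differ, so they were not compared across slides. Alas2 had 5.19 and 5.28 and Slc4a1 -3.39 and -3.30. All 5 Kupffer cell markers, those of the resident macrophage that clears aged red cells, were higher in replicate 4, with a summed level of 21.6 in replicate 2, 45.3 in replicate 4 and 90.2 and 95.6 at 5 months. Lymphocyte markers were higher in replicate 4 by more than 0.6 in 3 of 5, sinusoidal endothelial in 2 of 4 and neutrophil in 1 of 4, with none lower. Of 6 progenitor markers 1 was higher by that much and 2 lower. None of the 5 hepatocyte markers differed by that much. The part of Kupffer cells or of residual blood in the globin levels was not tested.

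The remaining genes gave narrower intervals on this slide. Alas2 had log2 levels of 5.19 and 5.28 in primary hepatocytes and of 5.08 and 5.23 at 5 months, a change of -0.08 with a 95% confidence interval of -0.63 to 0.47. Klf1 changed by -0.05 (-0.71 to 0.60), Epor by 0.14 (SE 0.36) and Car2 by -0.11 (-0.82 to 0.59). Slc4a1 changed by -0.18 (-1.27 to 0.90) and was well above background on both primary arrays and on 1 of the 5-month arrays.

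Car1 was lower at 5 months without passing the threshold. Its shared probe had log2 levels of 1.69 and 1.72 in primary hepatocytes against 0.14 and 0.44 at 5 months, and its second probe had 0.78 and 0.50 against -1.62 and -0.96. The groups did not overlap on either probe. The change was -1.41 (SE 0.22, adjusted p = 0.115) on the shared probe and -1.92 on the other. Without primary replicate 2 or replicate 4 it was called, with adjusted p-values of 0.0402 and 0.0417 by limma, but then the 5-month pair alone gave the spread and the calls among all genes rose from 110 to 1533 and 1624. Without either 5-month array no gene was called by limma.

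Of the lists, only 2 genes passed between 5 months and primary hepatocytes, where 0.552% of all genes passed. Gfi1b, an erythroid and megakaryocytic repressor, was not well above background on either primary array and was at least 1.68-fold higher at 5 months (limma adjusted p = 0.0356). It passed the filter through the 5-month arrays alone, which set its direction. The p-value also rests on dim primary levels of -6.42 and -6.20. Socs3, a feedback inhibitor of cytokine signalling, rose by 2.37 (adjusted p = 0.0444). None of the other genes of heme synthesis, the membrane, iron uptake or late erythroid stages that were tested passed by limma.

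Across slides, 6 of the 9 genes could be compared on probes of identical sequence, scaled to the 75th percentile of the shared probes. Slide and group cannot be told apart in these comparisons. In primary hepatocytes 5 of 6 were lower than in Lin- BM cells and 1 higher, against 38% and 29.3% of all 9231 genes. In 5-month cells 5 of 6 were lower than in Lin- BM cells and 1 higher, against 37.7% and 29.3%. Both comparisons share the Lin- arrays. All genes had a median change of -0.29 and -0.30, which moved to -0.05 and -0.10 with the percentile taken over all probes.

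Alas2 was again the gene on the higher side, on its only probe and against the same Lin- arrays as at 1 month. Its levels were 1.91 and 1.79 in Lin- BM cells, 3.48 and 3.61 in primary hepatocytes and 3.45 and 3.56 at 5 months. It was higher by 1.70 (SE 0.30, adjusted p = 0.00243) in primary hepatocytes and by 1.66 (SE 0.30, adjusted p = 0.00276) at 5 months. Slc4a1 changed by -7.58 in primary hepatocytes and -7.72 at 5 months, where 1 of 2 arrays was not well above background, and Car2 by -6.99 and -7.06. Under normexp the order turned, with -5.09 and -5.10 for Slc4a1 and -6.32 and -6.39 for Car2. Epor changed by -5.25 and -5.07, Klf1 by -4.02 and -4.03, and Car1 by -3.45 and -4.82. Normexp moved Epor to -4.43 and -4.35 and Klf1 to -3.07 and -3.08. Each of these differences lay beyond the spread of the arrays at an adjusted p of 0.00527 or less.

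Among the 3 hepatocyte groups most of the 6 genes did not differ beyond the spread. That spread was pooled over all 4 groups, so it held the Lin- arrays, which are not compared here. For Epor the standard deviation was 1.52 in Lin- BM cells, 0.34 at 1 month, 0.30 at 5 months and 0.55 in primary hepatocytes. A gene that did not pass was therefore not shown to be alike between these groups. At 1 month against primary hepatocytes 1 of 6 passed, against 16.8% of all genes, and at 5 months against 1 month 1 of 6 passed, against 17.1%. It was Slc4a1 both times. Its shared-probe levels were -3.17 and -3.29 at 1 month, -5.67 and -4.67 at 5 months and -5.09 and -4.97 in primary hepatocytes. The change was 1.80 at 1 month against primary hepatocytes (SE 0.35, adjusted p = 0.0189) and -1.94 at 5 months against 1 month (SE 0.35, adjusted p = 0.0157). Both calls cross the slides and rest on dim spots. Signals before scaling were 22.7 and 23.8 units at 1 month, 13.6 and 12.9 in primary hepatocytes and 7.46 and 12.9 at 5 months. All but that of 5-month replicate 1 were well above background. Both differences were smaller before scaling, so part of each rested on the lower percentile of the 1-month arrays. Under the other background correction the changes were 0.91 and -0.92, both called. The calls were lost when single arrays were left out, the first without any of its 4 arrays and the second without 1-month replicate 1 or 2 or 5-month replicate 1.

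Epor had the same order without passing. Its shared-probe levels were -0.69 and -0.21 at 1 month, -2.44 and -2.01 at 5 months and -2.80 and -2.01 in primary hepatocytes, and the change was 1.95 (adjusted p = 0.103) at 1 month against primary hepatocytes and -1.77 (adjusted p = 0.120) at 5 months against 1 month. Before scaling the Epor signals were 127 and 201 units at 1 month, 66.7 and 99.9 in primary hepatocytes and 70.2 and 81.6 at 5 months. Part of its changes thus also rested on the scaling. In order of their scaled means, Epor and Slc4a1 ran from Lin- BM cells to 1-month cells to the other hepatocytes. The last 2 groups of each did not differ beyond their spread. For Alas2, Klf1, Car1 and Car2 no pair of the 3 hepatocyte groups passed the threshold. The split of calls among all genes in these comparisons moved with the scaling, from 69.5% to 50.1% higher at 1 month against primary hepatocytes and from 33.9% to 52.5% higher at 5 months against 1 month when the percentile was taken over all probes.

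**Figure D5:**
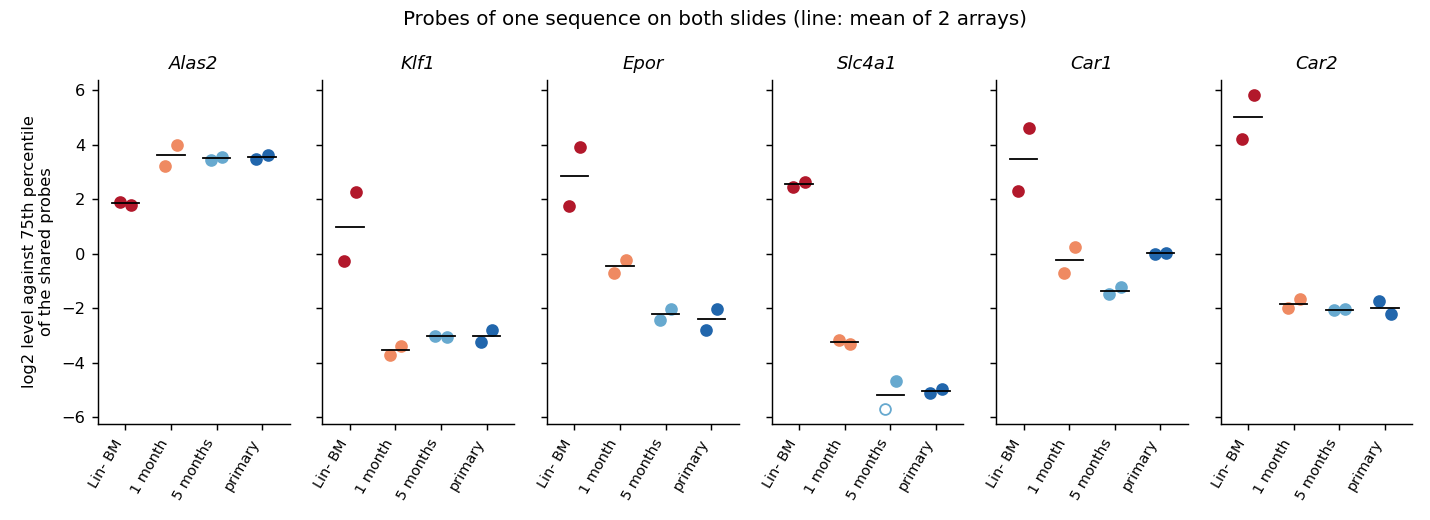
Log2 levels of the 6 genes with a probe of identical sequence on both slides, against the 75th percentile of the shared probes, with 2 arrays a group, lines at the means and an open circle for a spot not well above background. Lin- BM cells and 1-month cells lie on slide A and the other groups on slide B. Lin- BM cells are highest for 5 genes and lowest for Alas2.

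Genes with the most similar pattern over the 8 arrays were found by Pearson correlation with 8747 named genes, given as a description since 2 Lin- arrays and 6 hepatocyte arrays make up all points. Epor was closest to Rhag, the Rh-associated glycoprotein of the red cell membrane, with r = 0.997. Slc4a1 was closest to Chl1 (0.998). Car2 was closest to Blm (0.998), the helicase of DNA repair, with Wdr90 and Rhd next (both 0.997). Klf1 was closest to Tyms-ps (0.991), Car1 to Cenpp (0.983) and Alas2 to Numb (0.996). Among the 6 genes themselves r ran from 0.884 to 0.966 for pairs without Alas2, and from -0.951 to -0.838 for pairs with it.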

How the data were processed

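Expression was measured on 8 single-colour (Cy3) Agilent arrays of 2 designs, 2 per group, grouped by the GEO labels. The 9 genes and the gene lists were chosen with earlier results of these data known. The authors scanned the arrays with Feature Extraction 11.5.1.1, and the deposited spot intensity is its processed signal, background-subtracted within the array and not scaled between arrays. The deposited value tables hold log2 values that the authors shifted by the 75th percentile in GeneSpring GX, and at least 99.8% of them lay within 0.02 of the values computed here.

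Log2 processed signals were shifted by each array's 75th percentile. Outlier spots were left out, a probe was kept where some group had it well above background on each of its arrays, and the brightest probe stood for a gene. Across slides only probes of identical sequence were used, with the percentile over these and the spread pooled over all 4 groups. Groups were compared with limma 3.58.1 in R 4.3.3 (lmFit and eBayes), with Benjamini-Hochberg adjusted p under 0.05 over all genes and a log2 change beyond 0.6. The scripts were tested on simulated data. A bound ("at least") sets a group's mean against the lowest signal well above background in the other group. Named list genes were up to 4 called genes a list with the largest change, others being named by value only after their values were seen, and likeness was ranked over genes in the RefSeq table. Other settings tried were quantile normalization, normexp correction with an offset of 50, the authors' values, other filters, the mean of probes, the methods' own test, the percentile over all probes and leaving out each array. The number of arrays limits the precision.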

Additional observations from a re-analysis of the deposited data

Results flagged for a closer look

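Slc4a1 was flagged because its level differed between the 2 time points of BM-derived hepatocytes on the probe that both slides share. The change from 1 to 5 months was -1.94 (SE 0.35, limma adjusted p = 0.0157), with log2 levels of -3.17 and -3.29 at 1 month and of -5.67 and -4.67 at 5 months. The time points lie on different slides, so slide and time cannot be told apart, and 1 of the 5-month spots was not well above background. Signals before scaling were 22.7 and 23.8 units at 1 month and 7.46 and 12.9 at 5 months, so part of the difference rested on the scaling. The change was -1.44 (adjusted p = 0.0677) without 5-month replicate 1. It was -0.92, still called, under normexp.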

How the results depend on the processing

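Of 346 values of the 9 genes under other settings 313 kept direction and side of the threshold, 24 lost a call, 2 gained one and 7 changed sign, and of 164 values without 1 array 131, 16, 4 and 13 did so. Of the 9 genes called at 1 month against Lin- BM cells 2 were called by the methods' test after Benjamini-Hochberg adjustment, and 5 to 8 without single arrays. In that comparison the methods' test after adjustment called 16% of all genes, so 2 of 9 lay near that share. The main fit called 55.3% of all genes, and leaving out any single array lowered that share too. At 5 months against primary hepatocytes 0 were called, and 1 by the methods' test unadjusted, against 6.84% of all genes. The 110 calls among all genes ranged from 0 to 1364 in the settings that kept all arrays. Against Lin- BM cells 6 were called in primary hepatocytes and 6 at 5 months. By the methods' test after adjustment 2 and 3 were, against 27.1% and 36.1% of all genes. At 1 month against primary hepatocytes and at 5 months against 1 month 1 was called, and 0 under the stricter filter, which removes Slc4a1, and by the methods' test after adjustment. Without single arrays 0 were called in the first and 0 to 1 in the second. At 1 month against primary hepatocytes Alas2 changed to -0.040 and Klf1 to 0.18 under normexp, and Alas2 to -0.21 and Car2 to -0.12 with the percentile over all probes. At 5 months against 1 month Alas2 changed to 0.12 and Car2 to 0.0033 with that percentile, and Klf1 to -0.19 under normexp. Without single arrays, the change at 5 months against primary hepatocytes ran from -0.37 to 0.15 for Car2, -0.24 to 0.51 for Epor, -0.52 to 3.73 for Hba-a1, -0.58 to 4.31 for Hbb-b1, -0.27 to 0.16 for Klf1 and -0.71 to 0.34 for Slc4a1. At 1 month against primary hepatocytes it ran from -0.34 to 0.46 for Alas2, -0.71 to 0.24 for Car1 and -0.089 to 0.39 for Car2, and at 5 months against 1 month from -0.50 to 0.30 for Alas2. The cause was not tested. No paired analysis was possible because the groups compared share fewer than 2 replicate numbers.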
